A study of Mus musculus with 6 samples.

Results

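The metalloproteinase genes and the genes of their tissue inhibitors were examined in RNA-seq libraries labelled as mouse liver sinusoidal endothelial cells (LSECs). LSECs are the fenestrated endothelium that lines the liver's capillaries. Marker genes, given below, showed far more macrophage than LSEC marker RNA in every library. The members were chosen by symbol alone, as genes named Mmp, Adam, Adamts or Timp followed by a number and at most 1 letter. Of 60832 genes in the table, 80 met this rule: 23 MMP, 34 ADAM, 19 ADAMTS and 4 TIMP genes. The cells came from HCT116 colorectal cancer liver metastasis (CRCLM) xenografts, that is, human HCT116 colorectal carcinoma cells grown in the liver of mice. There were 3 libraries from bevacizumab-sensitive and 3 from bevacizumab-resistant xenografts, called the sensitive and the resistant libraries here. Bevacizumab is an antibody that neutralizes vascular endothelial growth factor A, and the resistant model was made from the sensitive one by prolonged treatment with it. The labels do not say whether the sensitive mice received a control antibody. The study's methods give IgG to the vehicle group of its xenografts, without naming that group as the source of these cells. Per the study's methods, the hosts were male BALB/c nude mice, which lack thymus-derived T cells but keep macrophages, neutrophils and natural killer cells. Cells of both groups were taken with beads against CD146 and cultured for 24 h. The comparison asks whether the cells taken in this way express these genes differently in the resistant xenografts. Resistance came with prolonged treatment, so resistance of the tumor and exposure to the drug cannot be told apart. Nothing in the labels says that the libraries came from separate mice, so p-values measure the spread between these libraries, which may be partly technical.

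Matrix metalloproteinases (MMPs) are zinc enzymes that are made as inactive precursors and cut collagens, elastin, other matrix proteins and chemokines. ADAMs are membrane-bound relatives, several of which release cytokines, receptors and adhesion molecules from the cell surface, and ADAMTS enzymes are secreted and cut proteoglycans, procollagens and von Willebrand factor. TIMPs block MMPs, and some of them also block ADAMs and ADAMTS enzymes. In the liver these enzymes are known for remodeling the matrix of the space of Disse between the sinusoidal endothelium and the hepatocytes, and both endothelial cells and resident or infiltrating leukocytes make them.

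Of the MMP genes, 10 lie side by side on mouse chromosome 9, within 427 kb (chr9:7272514-7699585, GRCm38, GENCODE M21). This cluster holds both the MMP gene with the highest level per length here and genes at 0. The DNA just before the start of its members is therefore shown first, except for Mmp1a, Mmp1b and Mmp20, which are not shown. The sequences are from RefSeq (GRCm38.p6), are read 5′ to 3′ on the gene's strand and end at the base before the annotated start. Capitals mark 3 motifs, each searched on both strands. The AP-1 site, bound by Fos and Jun proteins, was searched as TGANTCA. The TATA box, which places the start of many regulated genes, was searched as TATAAA. The GC box, bound by Sp1 and its relatives, was searched as GGGCGG. No marked sites overlap, and in Mmp14 a pair of GC boxes abut. Mmp14, which lies outside the cluster, is included because it was the tested member with the lowest p-value.
Mmp13 (chr9:7272394-7272513, plus strand): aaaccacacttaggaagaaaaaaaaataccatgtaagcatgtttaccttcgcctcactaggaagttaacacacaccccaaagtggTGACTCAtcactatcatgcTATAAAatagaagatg
Mmp12, downstream start (chr9:7347254-7347373, plus strand): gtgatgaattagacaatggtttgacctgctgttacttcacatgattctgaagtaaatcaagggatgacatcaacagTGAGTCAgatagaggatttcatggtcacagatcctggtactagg
Mmp3 (chr9:7445702-7445821, plus strand): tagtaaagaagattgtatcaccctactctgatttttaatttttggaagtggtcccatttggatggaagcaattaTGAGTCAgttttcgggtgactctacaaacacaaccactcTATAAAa
Mmp10 (chr9:7502222-7502341, plus strand): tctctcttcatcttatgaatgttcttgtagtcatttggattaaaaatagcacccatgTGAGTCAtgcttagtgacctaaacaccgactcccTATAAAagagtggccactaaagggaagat
Mmp8 (chr9:7558309-7558428, plus strand): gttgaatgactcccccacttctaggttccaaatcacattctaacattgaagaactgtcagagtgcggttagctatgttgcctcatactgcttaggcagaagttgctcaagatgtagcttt
Mmp27 (chr9:7571276-7571395, plus strand): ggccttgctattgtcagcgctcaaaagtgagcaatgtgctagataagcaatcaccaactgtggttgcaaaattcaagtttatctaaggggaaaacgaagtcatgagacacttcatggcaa
Mmp7, upstream start (chr9:7691970-7692089, plus strand): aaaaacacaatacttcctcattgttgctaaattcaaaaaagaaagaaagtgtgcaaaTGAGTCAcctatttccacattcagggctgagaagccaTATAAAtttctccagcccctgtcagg
Mmp14 (chr14:54431478-54431597, plus strand): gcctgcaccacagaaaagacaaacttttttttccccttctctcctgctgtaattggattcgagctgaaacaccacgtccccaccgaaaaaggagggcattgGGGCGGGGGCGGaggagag
Mmp13, Mmp3, Mmp10 and Mmp7 each held an AP-1 site upstream of a TATA box. The AP-1 site began 35 bases before the start in Mmp13, 46 in Mmp3, 63 in Mmp10 and 63 in Mmp7, and the TATA box began 16, 7, 29 and 26 bases before it. Mmp12 has 2 annotated starts, and the downstream one, shown here because it held a motif, had an AP-1 site 44 bases before it, while the upstream one held none of the 3 motifs in 250 bases. Mmp8 and Mmp27 held none of the 3 motifs, in the bases shown or in the 250 bases before the start. Of the 50 members with an entry in the promoter table, 12 (24.0%) held an AP-1 site in these 250 bases, against 7.82% of all 27025 genes there. TATAAA was in 24.0% of the members and 14.3% of all genes, and GGGCGG in 40.0% and 35.4%. Among the 29 tested members with an entry, the AP-1 site was in Adam19, Mmp10, Mmp12, Mmp13, Mmp3 and Mmp7. These matches describe letters in the reference and are not measurements of binding.

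Expression along the cluster differed widely from one gene to the next on the per-length scale (FPKM, read fragments per kilobase of gene length and library size, as deposited by the authors). Mmp8, the neutrophil collagenase, had a median of 226 FPKM over the 6 libraries, with a range of 58.7 to 487. Its neighbor Mmp27 was at 6.89 to 20.6 FPKM. Mmp12, the macrophage metalloelastase, lay at 4.05 to 54.9 FPKM, and Mmp7 (matrilysin) at 0 to 8.62. The stromelysins Mmp3 and Mmp10 and the collagenase Mmp13 had medians of 1.62, 1.13 and 0.52 FPKM. Mmp1a and Mmp1b had no read in any library, and the tooth enamel protease Mmp20 had 1 read in all. Mmp12 overlaps Mmp1b on the opposite strand, and how strand was treated in the counting is not stated.

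**Figure D1:**
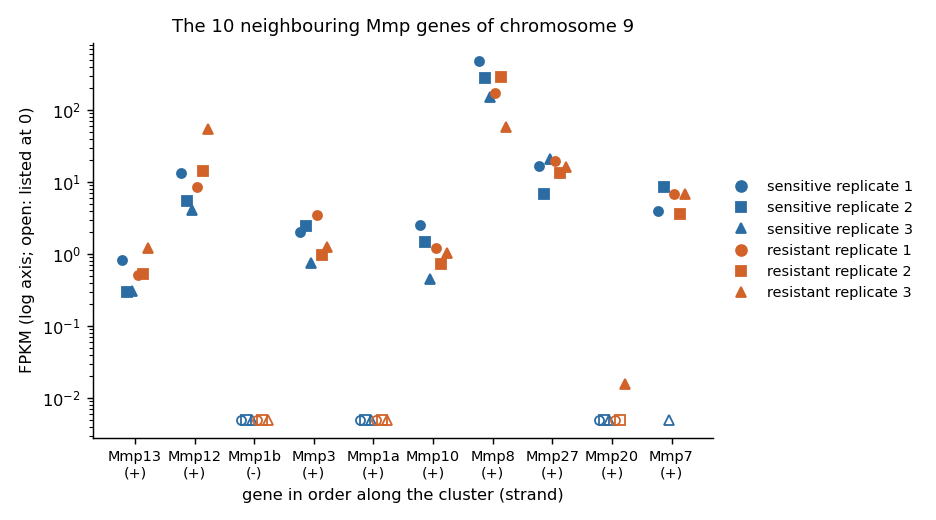
FPKM (log axis) of the 10 Mmp genes of the chromosome 9 cluster in their order along the chromosome, with the strand under each name. Each point is 1 library, colored by group, and open symbols at the bottom are values listed at 0. Mmp8 is the highest gene of the cluster in all 6 libraries, and in resistant replicate 3 it is at 58.7 with Mmp12 close to it at 54.9.

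Total counts per library were between 17599326 and 20726684, and members took 0.205% to 0.353% of them. A library with no count of a gene allows up to 0.136 to 0.195 CPM (counts scaled to a common library size), the level of 3 counts, and this floor covers counting error only. Sensitive replicate 2 stood apart: its median correlation with the other libraries was 0.872, against 0.957 to 0.963 for the rest. The labelled cell type was checked with marker lists. LSEC markers summed to 107 to 224 FPKM and pan-endothelial markers to 19.7 to 131 FPKM, while macrophage and Kupffer cell markers summed to 14270.5 to 22236.9 FPKM and neutrophil markers to 210 to 9795 FPKM. None of the 15 LSEC, 16 pan-endothelial, 18 macrophage and 13 neutrophil markers in the table was at 0 in all libraries. The libraries therefore held far more macrophage than LSEC marker RNA, in every library, and levels below are those of the libraries labelled LSEC. The study's methods report a high purity of CD146-positive cells by flow cytometry for LSECs isolated with these beads. That is a measure of 1 surface protein, and how it relates to the marker sums was not tested. In bulk RNA, fewer cells of a type and less RNA per cell cannot be told apart.

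Of the 80 members, 59 had at least 1 count and 21 had none in any library. The filter on low counts kept 42 for testing: 16 MMP, 13 ADAM, 10 ADAMTS and 3 TIMP genes. Of these, 18 averaged at least 10 CPM, 17 were between 1 and 10 CPM and 7 were below 1 CPM. The 21 members without a count were Mmp1a, Mmp1b, Adam5, Adam6a, Adam6b, Adam7, Adam18, Adam20, Adam24, Adam25, Adam26a, Adam26b, Adam29, Adam30, Adam34, Adam34l, Adam39, Adamts8, Adamts16, Adamts17 and Adamts19. Many of these ADAMs are known from the testis.

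A few genes carried most of the summed level. All members together summed to 546 to 1007 FPKM, of which Mmp8 made up 9.64% to 48.4% and Adam8 11.5% to 33.8%. Mmp8 was the highest member in all 3 sensitive libraries and in resistant replicate 1. Adam8 was the highest in resistant replicates 2 and 3. By family, the MMP genes summed to 178 to 620 FPKM, the ADAM genes to 140 to 476, the TIMP genes to 34.1 to 77.6 and the ADAMTS genes to 7.21 to 21.0. The groups overlapped in each family. Adam8 took 27.4% to 64.9% of the ADAM sum, and Adamts1 35.2% to 76.5% of the ADAMTS sum. Among the inhibitors, the balance between Timp1 and Timp2 changed from library to library: Timp1 made up 12.2% of the TIMP sum in sensitive replicate 3 and 64.8% in sensitive replicate 2.

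**Figure D2:**
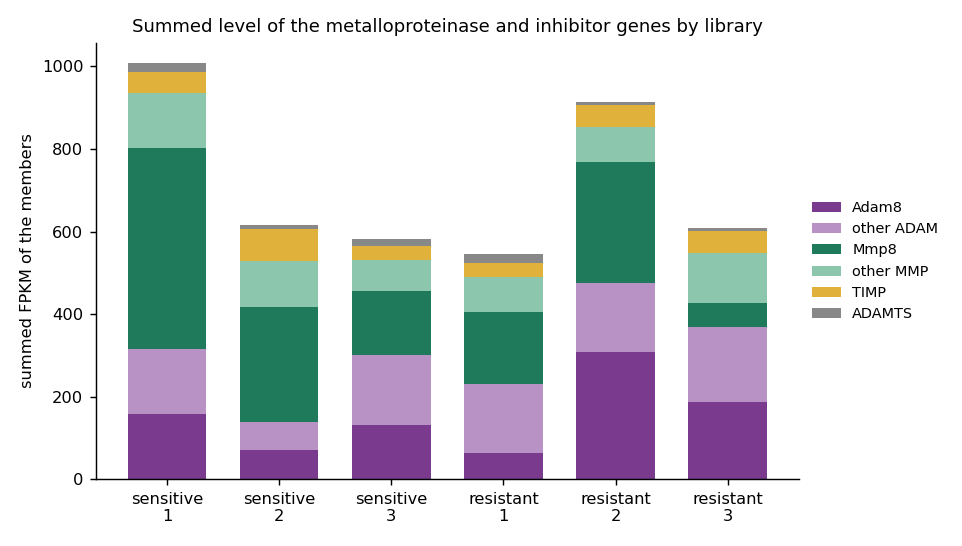
Summed FPKM of all 80 members in each of the 6 libraries, stacked by Adam8, the other ADAM genes, Mmp8, the other MMP genes, the TIMP genes and the ADAMTS genes. The total runs from 546 in resistant replicate 1 to 1007 in sensitive replicate 1, and the Mmp8 segment shrinks from 487 in sensitive replicate 1 to 58.7 in resistant replicate 3.

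**Figure D3:**
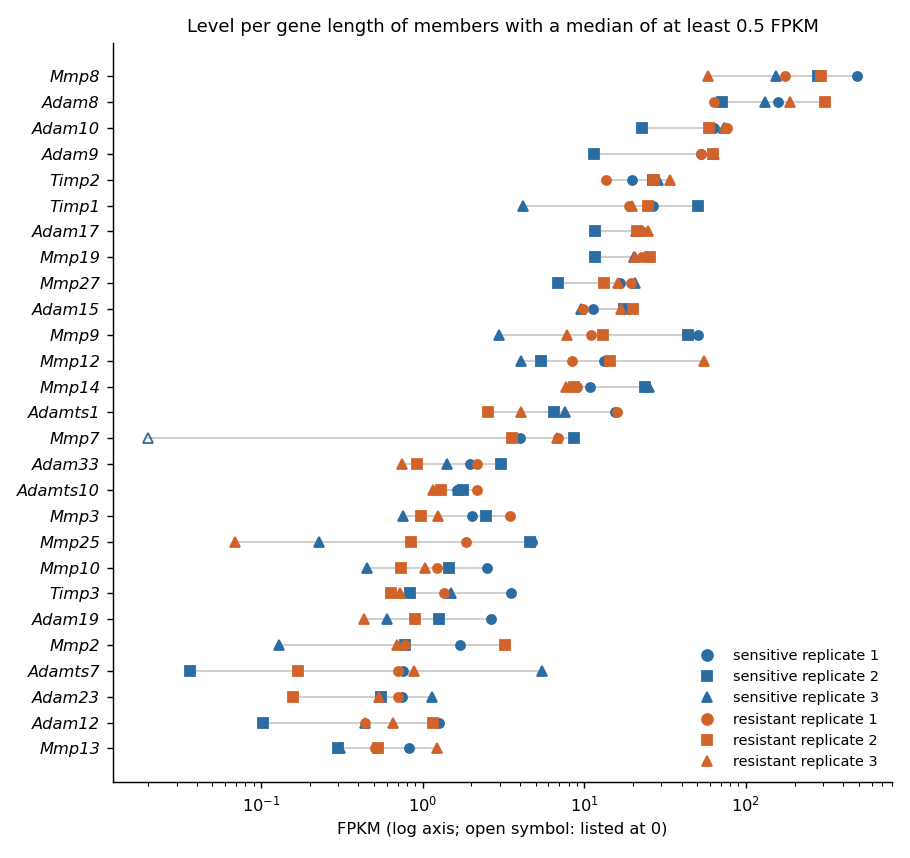
FPKM (log axis) of every member with a median of at least 0.5 FPKM, ordered by median, with 1 point per library and a gray line over their range. Blue points are sensitive and orange points resistant libraries, the shape gives the replicate, and an open symbol marks a value listed at 0. Mmp8 and Adam8 have the highest medians, at 226 and 144 FPKM, the colors are mixed in most lines, and Mmp25 spans 0.069 to 4.72 FPKM.

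No member passed the test between the groups. In edgeR's quasi-likelihood fit over 15474 genes, with p-values adjusted by Benjamini-Hochberg, 0 of 42 tested members had an adjusted p-value under 0.05, with a smallest value of 0.940, and the same count over all tested genes was 0 (0%). At an unadjusted p under 0.05, 0 members were higher in the resistant libraries, where 0.536% of all genes were, and 1 was lower, Mmp14, where 2.54% of all genes were. DESeq2, run on these genes as a second method, called 0.155% of all genes at an adjusted p under 0.05 and 0 members, and gave 4 of 42 members an unadjusted p under 0.05 (Mmp14, Mmp12, Mmp9 and Timp3), beside 4.74% of all genes. The fitted log2 fold change was positive for 22 members and negative for 20, with a median of 0.030, beside 0.0078 over all tested genes. The 3 libraries of one group lay wholly above those of the other in 2 members: Adam17 was higher in the resistant libraries, as were 4.64% of all tested genes, and Mmp14 was lower, as were 4.38%. The number of members at an unadjusted p under 0.05 became 2, 4 and 5 without sensitive replicates 1, 2 and 3, and 6, 3 and 1 without resistant replicates 1, 2 and 3. The share of all tested genes moved as well, to 3.69%, 3.94% and 6.28%, and to 3.89%, 1.45% and 1.07%, in the same order. With only 2 libraries left in a group, fewer values have to lie apart, so the number of members whose groups did not overlap became 5, 7 and 9, and 9, 6 and 2, beside 19.4%, 19.3% and 26.2%, and 23.6%, 14.8% and 12.6% of all tested genes.

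The median biological coefficient of variation between libraries was 54.9% for the tested members and 36.2% for all tested genes, a description with no test. It was lower than the latter for several abundant members, such as Mmp19 at 26.1% and Mmp14 at 33.7%. The 95% interval of the log2 fold change lay within 1 of 0 for 5 members only: Adam17, Mmp19, Mmp27, Timp2 and Adamts10. For the other 37 tested members, differences larger than that were within the interval.

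**Figure D4:**
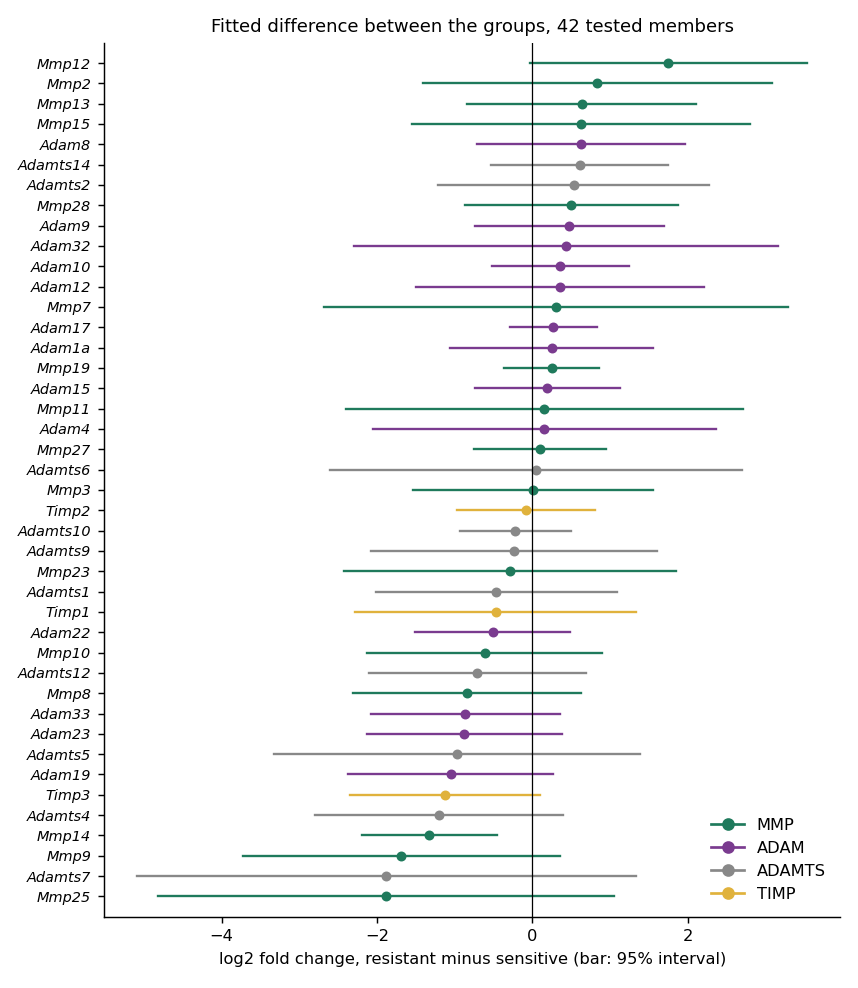
Fitted log2 fold change, resistant minus sensitive, with its 95% interval (edgeR) for the 42 tested members, ordered by value and colored by family. The interval of Mmp14, from -2.20 to -0.46, is the one that leaves out 0, and that of Adamts7, from -5.08 to 1.33, is the widest.

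Mmp14, the membrane-type MMP also called MT1-MMP, cuts collagen at the cell surface and activates the precursor of Mmp2. The gene lies at chr14:54431612-54445364 on the plus strand (GRCm38), and the bases before it hold 2 abutting GC boxes in the sequence shown above. It was at 60.6, 161 and 151 CPM in sensitive replicates 1 to 3 and at 50.5, 52.4 and 45.5 CPM in resistant replicates 1 to 3. The resistant values were close to each other and below every sensitive value, although sensitive replicate 1 was nearer to the resistant libraries than to the other sensitive ones. The means were 124 ± 55.2 CPM (SD) and 49.5 ± 3.58 CPM with 3 libraries each. The log2 fold change was -1.33 (SE 0.37), with an edgeR p of 0.00864 and an adjusted p of 0.940, so the difference did not pass the correction. The sign held in each of 17 alternative settings, and the unadjusted p was under 0.05 in 16 of them. Its activation target Mmp2 (gelatinase A) was low, at 0.44 to 5.36 CPM in the sensitive and 2.31 to 11.0 CPM in the resistant libraries. Of the pan-endothelial markers, 15 of 16 also had negative fold changes. At an unadjusted p under 0.05 (edgeR), 6 of these were lower, beside 2.54% of all tested genes. The marker sum was 457, 364 and 551 CPM in the sensitive and 436, 88.1 and 449 CPM in the resistant libraries. Sensitive replicate 2, the highest library for Mmp14, had the lowest sum of the sensitive libraries, below resistant replicates 1 and 3. The part of these markers in the Mmp14 values was not tested.

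Mmp8, Mmp9 and Mmp25, all known as enzymes of neutrophils, had lower mean values in the resistant libraries, with a spread that covered the difference. Mmp8 cuts fibrillar collagen and is stored in neutrophil granules. It was at 1111, 769 and 373 CPM in the sensitive and at 398, 720 and 140 CPM in the resistant libraries. The groups overlapped, and the log2 fold change was -0.84 (SE 0.62; adjusted p = 0.940, edgeR). Mmp9, or gelatinase B, cuts denatured and basement-membrane collagen. It was at 169, 178 and 10.6 CPM in the sensitive and at 36.4, 47.1 and 27.2 CPM in the resistant libraries. Sensitive replicate 3 was the lowest of all 6 libraries and the other sensitive libraries the highest. The log2 fold change was -1.69 (SE 0.86; adjusted p = 0.940, edgeR), and without sensitive replicate 3 it was -2.24 with an unadjusted p of 1.57e-04 and an adjusted p of 0.364. Mmp25, or leukolysin, is anchored in the membrane by a lipid. It was at 23.5, 27.8 and 1.22 CPM in the sensitive and at 9.24, 4.57 and 0.36 CPM in the resistant libraries. This 77.4-fold range was the widest of the 18 members above 10 CPM, and the log2 fold change was -1.88 (SE 1.24; adjusted p = 0.940, edgeR).

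The neutrophil marker list shared part of the pattern of these genes. Its sum was 4719, 8229 and 331 CPM in the sensitive and 1937, 1075 and 233 CPM in the resistant libraries. All 13 markers had negative fold changes, and none was at 0 in any library. At an unadjusted p under 0.05 (edgeR), 2 of them were lower, beside 2.54% of all tested genes. Mmp25 ranked the 6 libraries in the same order as this sum. Mmp8 and Mmp9 shared with it that sensitive replicates 1 and 2 were the top libraries. Unlike the sum, both were higher in resistant replicate 2 than in resistant replicate 1. Between sensitive replicates 2 and 3 the sum went from 8229 to 331 CPM, and Mmp8 from 769 to 373 CPM. The lowest library of Mmp9 was sensitive replicate 3, and that of the sum was resistant replicate 3. The part of these markers in the values of the enzymes was not tested.

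**Figure D5:**
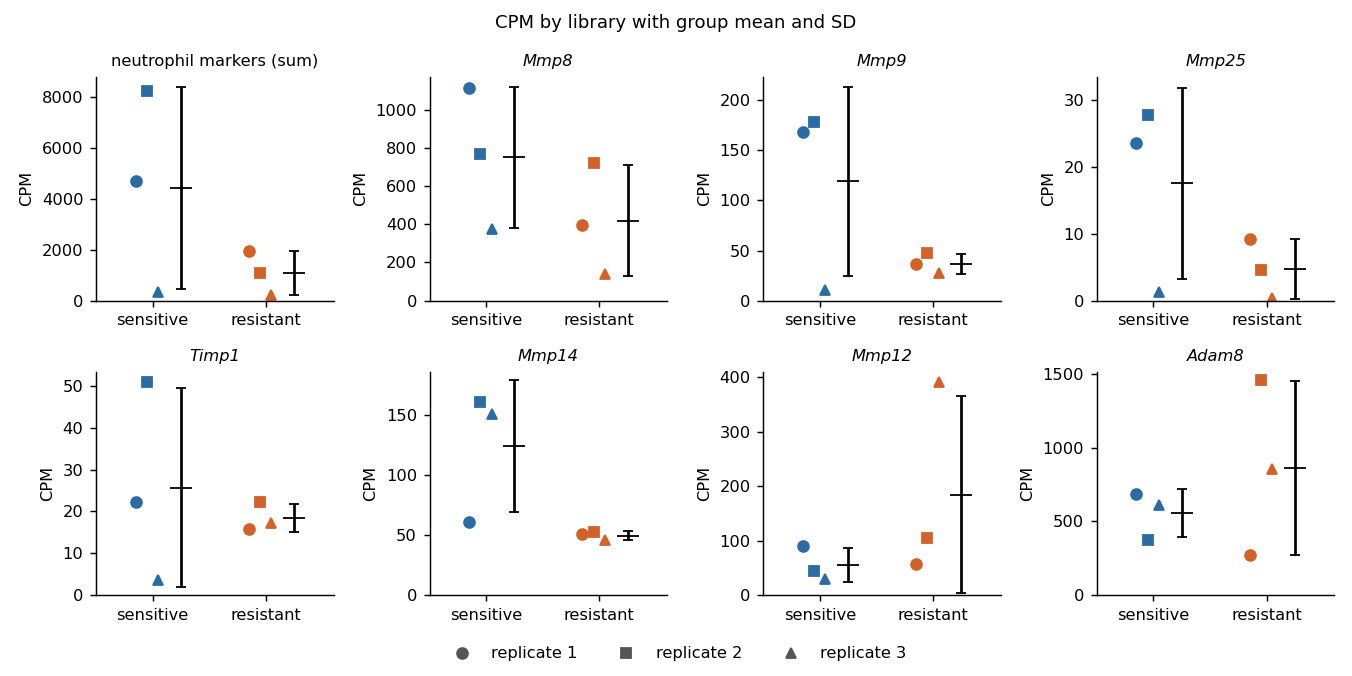
CPM by library of the summed neutrophil markers and of Mmp8, Mmp9, Mmp25, Timp1, Mmp14, Mmp12 and Adam8, with the mean and SD of each group in black. Marker shapes give the replicate. In the top row sensitive replicate 3 is the lowest sensitive library of each panel, Mmp14 is the panel in which the groups do not overlap, and the Mmp12 mean of the resistant group is set by replicate 3 at 391 CPM.

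Mmp12 had the largest positive fold change of the tested members, carried by 1 library. The enzyme is made by macrophages and cuts elastin. It was at 90.2, 44.7 and 29.5 CPM in the sensitive and at 57.2, 105 and 391 CPM in the resistant libraries. The groups overlapped, since resistant replicate 1 was below sensitive replicate 1. The log2 fold change was 1.75 (SE 0.76; unadjusted p = 0.0532 and adjusted p = 0.940, edgeR), and it was 0.57 without resistant replicate 3. The macrophage marker sum was 25244, 43453 and 41406 CPM in the sensitive and 30389, 30738 and 34033 CPM in the resistant libraries. Of the 18 markers, 9 had positive and 9 negative fold changes, and their part in the Mmp12 values was not tested. Mmp19, a secreted MMP outside the cluster, and Mmp27 were steadier. Mmp19 was at 82.9, 46.7 and 71.8 CPM in the sensitive and at 75.7, 92.0 and 71.6 CPM in the resistant libraries. Mmp27 was at 34.6, 17.4 and 45.9 CPM and at 40.4, 29.7 and 35.0 CPM. Their log2 fold changes were 0.25 (95% interval -0.36 to 0.86) and 0.10 (-0.74 to 0.95). For both, sensitive replicate 2 was the lowest library.

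The ADAM sheddases Adam10, Adam17 and Adam9 shared the same shape, with 5 libraries close together and sensitive replicate 2 below them. Adam10 releases Notch and many adhesion molecules. It was at 293, 128 and 362 CPM in the sensitive and at 353, 294 and 360 CPM in the resistant libraries. Adam9 was at 205, 54.3 and 259 CPM and at 203, 261 and 257 CPM. Adam17, also called TACE, releases tumor necrosis factor from the cell surface. It was at 151.6, 94.7 and 151.2 CPM in the sensitive and at 151.6, 153.5 and 174.5 CPM in the resistant libraries. Its groups did not overlap at this scaling, in which the nearest values were both 151.6 CPM, and they overlapped under library totals or DESeq2's size factors. The log2 fold changes were 0.36 (SE 0.37) for Adam10, 0.48 (SE 0.51) for Adam9 and 0.27 (SE 0.24) for Adam17, each with an edgeR adjusted p of 0.940. Without sensitive replicate 2, the library that stood apart, they were 0.03, 0.04 and 0.07.

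Adam8, known from macrophages, neutrophils and other leukocytes, was the ADAM with the highest median level, 144 FPKM. It was at 688, 375 and 612 CPM in the sensitive and at 275, 1456 and 853 CPM in the resistant libraries. The resistant group held both the lowest and the highest library. The log2 fold change was 0.63 (SE 0.57; adjusted p = 0.940, edgeR), 0.01 without resistant replicate 2 and 1.05 without resistant replicate 1. Adam15, which carries an integrin-binding domain and is known from endothelium, was at 65.4, 123 and 58.9 CPM in the sensitive and at 56.4, 125 and 102 CPM in the resistant libraries. In both groups replicate 2 was the highest, and the log2 fold change was 0.19 (SE 0.39). Adam23, which lacks the catalytic motif and acts in cell adhesion, was at 12.5, 11.3 and 20.5 CPM in the sensitive and at 11.8, 2.88 and 9.48 CPM in the resistant libraries. Its log2 fold change was -0.87 (SE 0.53; adjusted p = 0.940, edgeR), and the groups overlapped through resistant replicate 1.

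Adamts1, a proteoglycan-cutting enzyme that also binds vascular endothelial growth factor, was at 76.8, 39.3 and 40.8 CPM in the sensitive and at 79.2, 13.7 and 21.1 CPM in the resistant libraries. Resistant replicate 1 was the highest of all and the other resistant libraries the lowest. The log2 fold change was -0.46 (SE 0.66; adjusted p = 0.940, edgeR), and without resistant replicate 1 it was -1.59 with an unadjusted p of 0.0102 (edgeR). In that fit no member had an adjusted p below 0.969, and 3.89% of all tested genes had an unadjusted p under 0.05. Adamts10, which associates with fibrillin microfibrils, was at 12.6, 16.8 and 13.7 CPM in the sensitive and at 16.7, 10.9 and 9.38 CPM in the resistant libraries. It varied 1.79-fold over the 6 libraries, less than any other member above 10 CPM, and its log2 fold change was -0.22 (SE 0.30). Adamts7 was led by 1 library: it was at 34.4 CPM in sensitive replicate 3 and at 0.26 to 5.43 CPM in the other 5. Adamts13, the von Willebrand factor protease, had 14 reads in all and was not tested.

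Of the 4 inhibitors, Timp2, Timp1 and Timp3 were tested and had negative fold changes, none past the threshold, and those of Timp1 and Timp2 turned positive in other settings. Timp2, which blocks MMPs and takes part with Mmp14 in the activation of Mmp2, was at 72.0, 118 and 112 CPM in the sensitive and at 50.1, 106 and 129 CPM in the resistant libraries. Its log2 fold change was -0.08 (95% interval -0.97 to 0.81), and replicate 1 was the lowest in both groups. Timp1, which binds the precursor of Mmp9, was at 22.3, 51.0 and 3.72 CPM in the sensitive and at 15.9, 22.2 and 17.3 CPM in the resistant libraries. As for Mmp9, sensitive replicate 3 was the lowest library and sensitive replicate 2 the highest. The log2 fold change of Timp1 was -0.47 (SE 0.77), and 0.49 without sensitive replicate 2. Timp3, the matrix-bound inhibitor that also blocks Adam17, was at 26.8, 7.72 and 12.2 CPM in the sensitive and at 10.3, 5.29 and 5.84 CPM in the resistant libraries. Sensitive replicate 1 stood above the rest and sensitive replicate 2 lay among the resistant values. Its log2 fold change was -1.12 (SE 0.52; unadjusted p = 0.0663 and adjusted p = 0.940, edgeR), and -0.49 without sensitive replicate 1. The sign of Timp3 held in each of 17 alternative settings, and the unadjusted p was under 0.05 in 7 of them. Its smallest adjusted p there was 0.385, from limma-voom with sample weights. Timp4 had 1 read in sensitive replicate 3 and 1 in resistant replicate 1, at or under the floor in both groups. Timp1 and Timp3 overlap Syn1 and Syn3 on the opposite strand. By their whole spans, 23 of the 42 tested members overlap some annotated gene, on the same or the opposite strand. Whether these overlaps touch counted bases was not examined, and strand could separate reads only where the genes lie on opposite strands.

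The 24 tested members below 10 CPM ranged from Adam33, at 3.95 to 18.8 CPM, to Adam32, at 0 to 0.72 CPM. Their log2 fold changes ran from -1.88 (Adamts7) to 0.84 (Mmp2), and the lowest unadjusted p among them was 0.102, for Adam19 at 4.31 to 17.7 CPM in the sensitive and 3.02 to 6.47 CPM in the resistant libraries. Mmp7, which epithelia are known to make, was at 4.02, 10.5 and 0 CPM in the sensitive and at 6.89, 3.85 and 7.18 CPM in the resistant libraries. Epithelial markers summed to 155, 333 and 11.9 CPM and to 88.6, 114 and 270 CPM, so sensitive replicate 3 was the lowest library for both. Their part in the Mmp7 values was not tested. A further 17 members had counts but were too low to test, from Mmp20, with 1 read in all, to Mmp17, with 47 reads and 0 to 0.69 CPM. Of the 24 reads of Adamts15, 22 were in sensitive replicate 2, at 1.43 CPM.

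Other genes of the pathway were read from lists. Of 21 regulators of metalloproteinases, such as activating proteases, the Adam17 partners of the iRhom group and tetraspanins that guide Adam10, 18 were tested and 0 passed at an adjusted or an unadjusted p under 0.05. The highest in CPM were Lrp1, the receptor that clears MMP and TIMP complexes, at 538 to 2495 CPM, and Bsg (EMMPRIN), an inducer of MMPs, at 246 to 568 CPM. Among the tested regulators, 2 were higher in the resistant libraries with no overlap and 0 lower, beside 4.64% and 4.38% of all tested genes. Of 16 AP-1, ETS and RUNX factors, all were tested and 0 passed, with Jun at 170 to 220 CPM and Junb at 81.5 to 133 CPM. Of 17 related metalloproteinases outside the symbol rule, 8 were tested. Adamtsl4, an ADAMTS-like protein without protease activity, had a log2 fold change of -0.95 (SE 0.38). It was the one with an unadjusted p under 0.05, where 2.54% of all tested genes were lower. Ece1, which makes endothelin, was at 39.9 to 110 CPM.

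Of 20 matrix substrates, 17 were tested. Beside 2.54% of all tested genes, 1 was lower in the resistant libraries at an unadjusted p under 0.05. This was Vwf, the substrate of Adamts13, at 15.5, 21.4 and 17.6 CPM in the sensitive and at 7.84, 9.19 and 8.71 CPM in the resistant libraries. Its groups did not overlap, and the log2 fold change was -1.08 (SE 0.25; unadjusted p = 0.00301 and adjusted p = 0.940, edgeR). Vwf is also 1 of the 16 pan-endothelial markers, of which 15 had negative fold changes. Of these 16, 7 were lower with no overlap, beside 4.38% of all tested genes. The part of these markers in the Vwf values was not tested. Thbs1, at 514 to 2849 CPM, and Fn1, at 78.2 to 374 CPM, were the matrix substrates highest in CPM. Of 20 membrane proteins that ADAMs or MMPs are known to shed, 19 were tested and 0 passed the adjusted threshold. At an unadjusted p under 0.05, 3 were lower in the resistant libraries and 0 higher, beside 2.54% and 0.536% of all tested genes. Vcam1, the adhesion receptor for leukocytes, was at 1164, 1157 and 1911 CPM and at 919, 365 and 510 CPM, with a log2 fold change of -1.24 (SE 0.40) and no overlap. Tnf had a log2 fold change of -1.04 (SE 0.43), and its groups overlapped. Csf1r and Cd163, which macrophages express, were the shed substrates highest in CPM, at 652 to 1320 and 375 to 2251 CPM. Over the lists, the median log2 fold change was between 0.10 and 0.24, beside 0.0078 over all tested genes, and 0 genes passed the adjusted threshold by edgeR.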

How the data were processed

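RNA-seq of 6 libraries was analysed, 3 per group, with groups and replicate numbers taken from the sample titles. The labels state depletion of ribosomal RNA before library preparation. The submitters' processing notes name HISAT2 2.0.5, featureCounts 1.5.0-p3, DESeq2 1.16.1, edgeR and the build mm9. The authors deposited whole-number counts per gene, without normalization, and FPKM values, which divide the count by the library total and by 1 length per gene. Whether strand was used in counting is not given in the sources used here. A further table with the authors' own comparison (group means, log2 fold changes and p-values) was not used. The files hold no coordinates, and positions are those of GRCm38 (GENCODE M21), in which all 80 member identifiers were found. It is not known which annotation the authors counted on.

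The test was run in edgeR 4.0.16 (R 4.3.3): filterByExpr by group, TMM scaling and the robust quasi-likelihood test, two-sided, with no covariate, fitted on all 6 libraries. The Benjamini-Hochberg adjustment covered 15474 tested genes, with a threshold of 0.05. CPM are counts scaled by the TMM-adjusted library size, and standard errors are those implied by the F statistic. FPKM were used to set genes side by side. Depth was 17599326 to 20726684 counts per library. Reads had no molecular identifiers, so floors cover counting error only. The rows of the table without a gene symbol held 0.479% to 0.958% of the counts. Alternatives were other scalings and filters, DESeq2 1.42.0, limma 3.58.1, log2(FPKM + 1) and log2(FPKM + 0.1), a replicate block, and leaving out each library in turn. The scripts were tested on simulated data with large changes in genes of many counts and a fixed spread. Such a test checks the code and does not measure the power to find differences in these libraries.

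Values in every library are given for members with a mean of at least 10 CPM, the 4 Timp genes, members with an unadjusted p under 0.05 and tested members whose groups do not overlap. Others are given by range, except that Mmp7, Adamts7 and Adamts15 were singled out after their values were seen. Of each pathway list, the genes at p under 0.05 and the 2 highest in CPM are named, except 1 shed substrate that is not reported here. The members, the lists and the tests were chosen with earlier results of these data known.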

Additional observations from a re-analysis of the deposited data

How the results depend on the processing

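No member passed an adjusted p of 0.05 in any of the 17 alternatives. The number of all genes called, 0 in the edgeR test (476 at an unadjusted p under 0.05), was 2 without a filter on low counts, 24 and 25 with DESeq2 on the same genes and on every gene with more than 1 count, and 1 with limma-voom sample weights. Over the pathway lists 1 gene was called by DESeq2 on the larger gene set. The number of members at an unadjusted p under 0.05, 1 in the edgeR test, was 2 without the filter, 4 with DESeq2 on either gene set, 5 with sample weights, and 1 to 6 when 1 library was left out. The share of all genes, 3.08%, was then 5.98%, 4.74% and 3.75%, 9.59%, and 1.07% to 6.28%. The number of members with no overlap, 2, was 1 with DESeq2's size factors, library totals alone, at least 10 counts in every library, DESeq2 on the same genes, log2(FPKM + 1) and log2(FPKM + 0.1), each time without Adam17. It was 3 (Adam28, Mmp14 and Mmp21) without the filter and with DESeq2 on the larger gene set, and 2 to 9 when 1 library was left out, where the share of all genes rose from 9.02% to between 12.6% and 26.2%. The median log2 fold change of the members, 0.030, was -0.17 with at least 10 counts in every library, 0.19 with limma-voom, -0.22 with sample weights, and -0.17 to 0.056 when 1 library was left out.

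Of 305 values of the 18 members above 10 CPM, 289 kept their sign and side of the threshold and 16 changed sign. Timp2 turned to 0.0085 without the filter and 0.34 with sample weights. Timp1 turned to 0.24 with limma-voom, 0.31 with sample weights, 0.18 with log2(FPKM + 1) and 0.24 with log2(FPKM + 0.1). Mmp27 turned to -0.10 with sample weights. When 1 library was left out, the log2 fold change ran from -0.21 to 0.42 for Mmp27, -0.36 to 0.23 for Timp2, -0.99 to 0.49 for Timp1 and -0.062 to 0.59 for Adam15. Without sensitive replicate 3, Timp2 was 0.0027 and Adam15 -0.0041. Mmp27 was -0.01 without resistant replicate 1, and Timp2 was 0.04 without sensitive replicate 2. Mmp14 stayed between -1.66 and -0.67, with a p of 0.0584 under sample weights. The median over all genes was 0.10 with log2(FPKM + 0.1) and -0.10 with DESeq2 on the larger gene set. The cause of these changes was not tested.

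With the replicate number as a block, 4 members had an unadjusted p under 0.05 (Mmp14, Mmp25, Mmp8 and Timp3), 467 of all genes (3.02%) did, and Timp1 was at 0.082. Deviations from the group means of same-numbered libraries correlated at -0.00093, 0.034 and 0.19. With 3 libraries per group, these values cannot show whether the libraries were paired. The labels give a shared number only, and no pairing was assumed. Depth limits mainly the 7 tested members below 1 CPM. Leaving 1 group with 2 libraries assumes that they vary like the other group.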
